A study of Homo sapiens with 6 samples.

Results

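The semaphorins and plexins are a ligand and receptor family that was measured here in U87 cells, a human glioblastoma line, with and without a dominant negative form of IRE1alpha. The members were 10 genes chosen by name, 6 semaphorins (SEMA3A, SEMA3B, SEMA3C, SEMA3F, SEMA4D and SEMA7A) and 4 plexins (PLXNA1, PLXNB1, PLXNB2 and PLXND1), out of 11963 genes with a probe set of their own. Every probe set annotated to 1 of these symbols alone was taken, which gave 17 of the 19064 probe sets with a single symbol. The 3 arrays labelled IRE1dn came from U87 cells of the clone U87 IRE1.NCK DN, which express a dominant negative transgene of IRE1alpha, the endoplasmic reticulum stress sensor encoded by ERN1. The 3 arrays labelled ctrl came from U87 cells that received the empty plasmid. Cells of both groups had grown for 16 h in DMEM with glutamine and 10% serum before total RNA was isolated. The labels name a single clone for IRE1dn and plural clones for ctrl, so the transgene and any difference between clones cannot be told apart. The labels do not say whether replicates were separate cultures. The p-values therefore weigh the difference between groups only against the variation among these samples within groups. That variation may be technical.

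Semaphorins are extracellular cues first known for steering growing axons, and they also act on blood vessels, immune cells and tumour cells. They share a sema domain and bind plexins, transmembrane receptors whose cytoplasmic part is a GTPase-activating domain for small Ras-family GTPases. Class 3 semaphorins are secreted and mostly need a neuropilin (NRP1 or NRP2) beside the plexin, whereas SEMA4D spans the membrane and SEMA7A is held by a lipid anchor, and neither needs a neuropilin. Plexin signalling loosens integrin adhesion and reshapes the actin and microtubule cytoskeleton, and in glioma the family has been studied for its part in invasion and vessel growth.

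Signals are the deposited linear intensities of each probe set, in array units. A mean log2 signal equal to 12.97 units was the level above which a gene was tested, and signals under that level can hold much background, so they are called neither present nor absent. Array medians lay between 18.4 and 21.03 units. Correlations of log2 signals were 0.974 to 0.979 among IRE1dn arrays, 0.959 to 0.967 among ctrl arrays and 0.930 to 0.951 between groups. For ACTB, signal at the 3′ end over that at the 5′ end, a measure of RNA integrity, was 1.16 to 1.21 in ctrl and 1.09 to 1.64 in IRE1dn. XBP1, whose transcript IRE1alpha splices, was lower in IRE1dn (log2 change -0.90, SE 0.18; adjusted p = 0.00448 by limma). ERN1 lay under 12.97 units in both groups' means and did not check the labels. Of the glial and glioma markers, 3 of 7 lay above the tested level, and none of the 3 was called by its brightest set. VIM had means of 2787 units in ctrl and 3825 units in IRE1dn, with overlap (adjusted p = 0.12 by limma). NES measured 9.52, 9.66 and 44.9 units in ctrl and 40.8, 27.8 and 34.7 units in IRE1dn (adjusted p = 0.16 by limma). CD44 had means of 1663 and 1669 units in its brightest set. All 6 CD44 sets above the level had a log2 change under 0, and 4 of them were called lower. The change of the brightest set was only -0.0019 (adjusted p = 0.99 by limma), so that set was flat. By mean over all arrays GFAP, S100B, OLIG2 and SOX2 lay under the level. OLIG2 measured 15.1, 24.9 and 9.20 units in ctrl and 2.34, 3.45 and 4.46 units in IRE1dn and was called lower without the filter (-1.74, SE 0.42; adjusted p = 0.0194 by limma). The part of these marker differences in the results was not tested.

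Transcripts of 5 of the 10 genes were higher in IRE1dn cells and none was called lower. SEMA3C and SEMA4D rose among the ligands, by 1.26 and 1.65 on the log2 scale, and PLXND1, PLXNA1 and PLXNB2 rose among the receptors, by 1.37, 0.91 and 0.80. SEMA3A and SEMA3F were tested and not called, and SEMA3B, SEMA7A and PLXNB1 lay under the tested level. Log2 changes are IRE1dn minus ctrl on log2(signal + 1.75), and a gene was called at a limma adjusted p under 0.05 over all 7178 genes tested. In that comparison 34.4% of genes were called in either direction, 17.9% higher and 16.5% lower in IRE1dn, and the median change of the genes tested was 0.01. SEMA4D passed the level only through its IRE1dn arrays, so the 7 tested members are not an unbiased sample of the family. Without any filter, 4 of the 10 were called, all of them higher, beside 19.1% of 11963 genes, and PLXNA1 was the one lost. Arrays of the groups did not overlap for 5 of the 7 tested genes, all with IRE1dn above and none with ctrl above, beside 26.0% and 24.2% of all genes tested. A larger share of cells expressing a transcript and more of it per cell cannot be told apart in RNA from whole cultures.

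**Figure D1:**
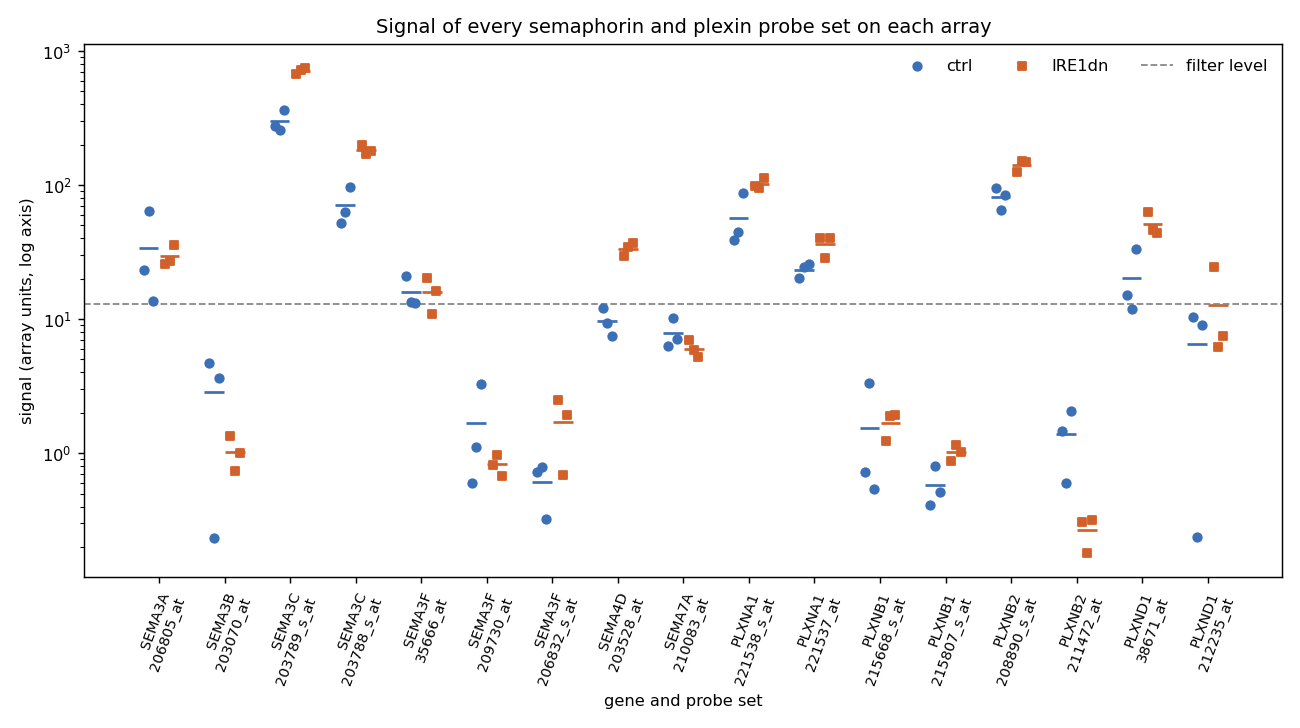
Signal of all 17 semaphorin and plexin probe sets (horizontal axis) in array units on a log axis, with 1 point per array, bars at the mean of each group of 3 arrays, circles for ctrl and squares for IRE1dn. The dashed line is the tested level of 12.97 units. IRE1dn arrays lie wholly above ctrl arrays for both SEMA3C sets, SEMA4D, both PLXNA1 sets, PLXNB2 208890_s_at, PLXND1 38671_at and PLXNB1 215807_s_at, the last of them under the line with most sets of the other genes. For PLXNB2 211472_at, also under the line, ctrl arrays lie wholly above IRE1dn arrays.

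SEMA3C, a secreted semaphorin that signals through neuropilins with plexin D1 or A-type plexins and has been linked to the survival of glioma stem-like cells, rose in every setting tried. Its probe set 203789_s_at measured 277, 259 and 364 units on ctrl arrays 1, 2 and 3, and 676, 719 and 744 units on IRE1dn arrays 1, 2 and 3. All IRE1dn arrays lay far above all ctrl arrays, of which array 3 was the highest. Means were 300.2 ± 56.1 and 713 ± 34.6 units (SD, n = 3 each), 2.38 times higher in IRE1dn, and the log2 change was 1.26 ± 0.17 (SE; adjusted p = 0.000771 by limma). A second set, 203788_s_at, measured 52.4, 63.1 and 97.3 units in ctrl and 199, 172 and 180 units in IRE1dn, again without overlap and with ctrl array 3 the highest of its group. Its change of 1.39 (SE 0.24; adjusted p = 0.00258 by limma over probe sets) differed from that of the first set by less than either SE. The call held in all 10 other settings and without any single array, where it lay between 1.16 and 1.40. RefSeq (GRCh38.p14) lists a pair of annotated starts for SEMA3C on the minus strand of chromosome 7, and their windows, from 250 bases before to 50 bases after the start, are shown because they differ in composition. The window at chr7:80919002-80919301 has a GC content of 75.7% and holds 3 GC boxes (GGGCGG), whereas that at chr7:80922340-80922639 has 36.0% and holds none, with 1 CCAAT box (CCAAT). In these and the later windows, capitals mark ACGTG, the GC box and the CCAAT box on either strand. The arrays do not show which start was used.
SEMA3C chr7:80919002-80919301: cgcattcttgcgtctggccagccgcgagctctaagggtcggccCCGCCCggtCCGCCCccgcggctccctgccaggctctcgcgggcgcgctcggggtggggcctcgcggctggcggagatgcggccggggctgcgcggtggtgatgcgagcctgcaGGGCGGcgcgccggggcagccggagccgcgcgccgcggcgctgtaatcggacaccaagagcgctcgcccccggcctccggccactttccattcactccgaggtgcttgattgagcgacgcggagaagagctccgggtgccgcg
SEMA3C chr7:80922340-80922639: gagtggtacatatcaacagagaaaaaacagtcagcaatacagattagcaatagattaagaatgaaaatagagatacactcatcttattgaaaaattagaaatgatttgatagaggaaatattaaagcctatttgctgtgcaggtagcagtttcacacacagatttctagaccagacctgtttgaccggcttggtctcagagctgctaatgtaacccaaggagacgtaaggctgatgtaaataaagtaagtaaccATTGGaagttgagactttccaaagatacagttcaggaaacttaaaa

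SEMA4D, a membrane semaphorin also known as CD100 that binds plexin B1 and plexin B2 and can be shed to act on endothelial cells, had the largest log2 change of the 10 genes as reported. Its single probe set, 203528_at, measured 12.2, 9.43 and 7.43 units in ctrl and 29.8, 34.4 and 36.7 units in IRE1dn. All 3 ctrl arrays lay under the tested level and all 3 IRE1dn arrays above it. Means were 9.68 ± 2.39 and 33.6 ± 3.55 units (SD, n = 3 each), and the log2 change was 1.65 ± 0.27 (SE; adjusted p = 0.00199 by limma). The size depended on the pseudocount and was 0.95 with a pseudocount of 16. The call held in each of the 9 other settings that tested the gene and without any single array. The RefSeq window of SEMA4D lies at chr9:89495607-89495906 on the minus strand and is shown because, among the windows of the 5 genes that rose, it alone holds ACGTG, the core shared by hypoxia response elements and by sites of unfolded protein response factors. It has 3 such matches, of which 2 are the strands of 1 CACGTG.
SEMA4D chr9:89495607-89495906: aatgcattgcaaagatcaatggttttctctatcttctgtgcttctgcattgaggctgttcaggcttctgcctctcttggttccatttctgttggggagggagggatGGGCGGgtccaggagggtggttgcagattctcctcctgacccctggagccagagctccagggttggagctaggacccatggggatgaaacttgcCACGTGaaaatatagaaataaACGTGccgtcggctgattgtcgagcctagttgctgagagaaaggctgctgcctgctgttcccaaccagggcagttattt

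The other secreted ligands did not pass the test. SEMA3A, the repulsive axon guide that binds NRP1 with A-type plexins, measured 23.4, 64.3 and 13.6 units in ctrl and 25.7, 27.0 and 36.0 units in IRE1dn. The ctrl arrays enclosed all IRE1dn arrays, and the SD of log2 signal was 1.07 in ctrl against 0.25 in IRE1dn. The log2 change was 0.074 (95% confidence interval -0.95 to 1.10; adjusted p = 0.92 by limma). Without ctrl array 2 it was 0.66 (adjusted p = 0.14 by limma), and without ctrl array 3 it was -0.39. SEMA3F, a ligand of NRP2, measured 21.0, 13.5 and 13.2 units in ctrl and 20.4, 10.9 and 16.3 units in IRE1dn with its brightest set, 35666_at. These groups overlapped, and the log2 change was -0.011 (95% confidence interval -0.72 to 0.69; adjusted p = 0.99 by limma). The other SEMA3F sets stayed at or under 3.31 units on every array. Set 209730_at measured 0.597, 1.12 and 3.31 units in ctrl and 0.822, 0.977 and 0.673 units in IRE1dn, and set 206832_s_at measured 0.727, 0.786 and 0.321 units and 2.47, 0.690 and 1.93 units. Both overlapped, and neither was called (-0.33, SE 0.32, and 0.51, SE 0.29).

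SEMA3B, which like SEMA3F lies on chromosome 3 and has been studied as a tumour suppressor, stayed at or under 4.68 units on all 6 arrays. It measured 4.68, 0.234 and 3.63 units in ctrl and 1.35, 0.736 and 0.995 units in IRE1dn (log2 change -0.57, SE 0.44; adjusted p = 0.43 by limma without the filter). SEMA7A, the lipid-anchored semaphorin that binds plexin C1 and integrin beta 1, measured 6.32, 10.3 and 7.15 units in ctrl and 6.93, 5.91 and 5.18 units in IRE1dn. Its groups overlapped, and the log2 change was -0.30 ± 0.34 (SE; adjusted p = 0.61 by limma without the filter). Every value of these 2 genes lay under the tested level, so no direction is given for either.

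PLXND1, the plexin that receives SEMA3E directly and SEMA3C through neuropilins and is best known from vascular endothelium, had the largest log2 change of the 4 plexins as reported. Its set 38671_at measured 15.1, 11.9 and 33.5 units in ctrl and 62.8, 46.1 and 44.0 units in IRE1dn. The groups did not overlap, although ctrl array 3 lay far above the other ctrl arrays. Means were 20.2 ± 11.6 and 50.9 ± 10.3 units (SD, n = 3 each), and the log2 change was 1.37 ± 0.35 (SE; adjusted p = 0.0152 by limma). The change was 1.78 without ctrl array 3, and the call ended without IRE1dn array 1 (1.22; adjusted p = 0.062 by limma). The second set, 212235_at, measured 10.4, 0.237 and 9.08 units in ctrl and 24.4, 6.18 and 7.49 units in IRE1dn, overlapped, and was not called (0.96, SE 0.74). With the mean of both sets the gene changed by 1.17 and was not called (adjusted p = 0.092 by limma). Of 4 endothelial markers (PECAM1, CDH5, VWF and TEK) none had a mean above the tested level, although PECAM1 reached 17.3 units on ctrl array 3. Their summed signal was 13.1 to 30.03 units in ctrl and 9.32 to 11.8 units in IRE1dn. The relation of these dim signals to PLXND1 was not tested. None of 3 leukocyte markers had a mean above the level. The RefSeq window of PLXND1 lies at chr3:129606627-129606926 on the minus strand and is shown as the most GC-rich of the family, at 87.3%, with 9 GC boxes and no ACGTG.
PLXND1 chr3:129606627-129606926: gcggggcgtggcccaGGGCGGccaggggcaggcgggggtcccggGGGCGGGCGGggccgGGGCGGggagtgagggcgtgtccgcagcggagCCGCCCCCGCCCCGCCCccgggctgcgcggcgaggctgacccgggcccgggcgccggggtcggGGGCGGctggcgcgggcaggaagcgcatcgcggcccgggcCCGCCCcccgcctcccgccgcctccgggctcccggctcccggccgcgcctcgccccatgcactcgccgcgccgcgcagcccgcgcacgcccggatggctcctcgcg

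PLXNA1, the A-type plexin that pairs with NRP1 to receive SEMA3A, measured 38.7, 44.7 and 86.9 units in ctrl and 98.2, 95.7 and 112 units in IRE1dn with set 221538_s_at. The groups did not overlap, but ctrl array 3 lay closer to the IRE1dn arrays than to the other ctrl arrays. Means were 56.7 ± 26.3 and 102 ± 9.06 units (SD, n = 3 each), and the log2 change was 0.91 ± 0.29 (SE; adjusted p = 0.0343 by limma). This was the least secure of the 5 calls. It ended without any single array other than ctrl array 3 (limma adjusted p of 0.081 to 0.12), and the change was 1.26 without ctrl array 3 (adjusted p = 0.00144 by limma). Set 221537_at measured 20.2, 24.3 and 25.8 units in ctrl and 40.2, 28.7 and 40.3 units in IRE1dn. It did not overlap either, but its change of 0.59 (SE 0.25) was not called (adjusted p = 0.094 by limma over probe sets).

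Of the B-type plexins, PLXNB2, a receptor of class 4 semaphorins, measured 94.5, 65.7 and 83.7 units in ctrl and 125, 152 and 149 units in IRE1dn with set 208890_s_at. The groups did not overlap, and the means were 81.3 ± 14.6 and 142 ± 14.9 units (SD, n = 3 each; log2 change 0.80, SE 0.20; adjusted p = 0.0136 by limma). The call ended without IRE1dn array 2 (0.75; adjusted p = 0.070 by limma) or IRE1dn array 3 (0.76; adjusted p = 0.062 by limma). The other PLXNB2 set, 211472_at, measured 1.46, 0.599 and 2.08 units in ctrl and 0.304, 0.180 and 0.315 units in IRE1dn. It lay under the tested level throughout, and its groups did not overlap, with ctrl above and no call (-0.61, SE 0.26; adjusted p = 0.16 by limma over probe sets without the filter). Averaging both sets left a change of 0.097, which was not called. PLXNB1, the high-affinity receptor of SEMA4D, stayed at or under 3.32 units in both of its sets on all arrays. Set 215668_s_at measured 0.729, 3.32 and 0.542 units in ctrl and 1.24, 1.90 and 1.93 units in IRE1dn, and the log2 change was 0.16 ± 0.36 (SE; adjusted p = 0.82 by limma without the filter). Set 215807_s_at measured 0.412, 0.803 and 0.511 units in ctrl and 0.880, 1.15 and 1.01 units in IRE1dn. It did not overlap but was not called (0.25, SE 0.23; adjusted p = 0.53 by limma over probe sets without the filter). At these signals no direction is given for PLXNB1.

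**Figure D2:**
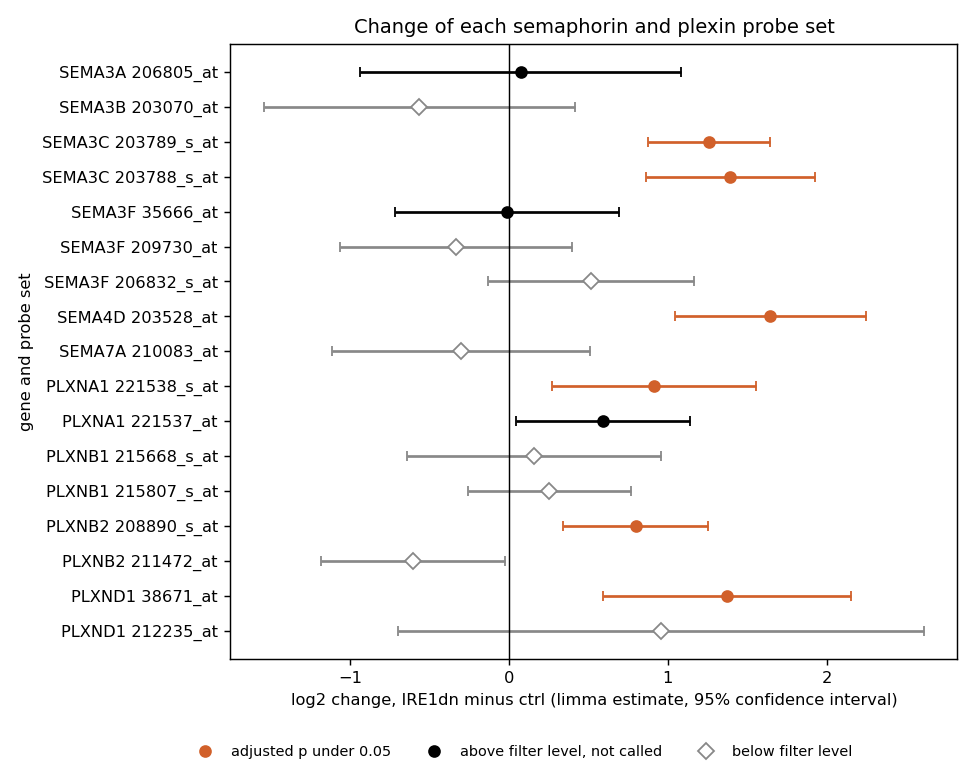
Log2 change, IRE1dn minus ctrl, of each of the 17 probe sets (vertical axis) as the limma estimate with its 95% confidence interval. Filled orange circles passed an adjusted p of 0.05, black circles lay above the tested level without passing, and open diamonds lay under it. The 6 sets that passed all lie to the right of 0, and the SEMA3A and PLXND1 212235_at intervals are among the widest.

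By probe set, 9 of 17 lay above the tested level. Of these 6 were called, all higher in IRE1dn, beside 31.2% of 12069 probe sets called in either direction and 17.0% called higher. Without the filter 5 of the 17 were called, beside 15.2% of all probe sets. Arrays did not overlap for 7 of the 9, all with IRE1dn above, a pattern of 25.7% of all probe sets tested, and none had ctrl above, a pattern of 21.9%. Ctrl arrays varied more than IRE1dn arrays for 14 of the 17 sets. By gene this held for 9 of the 10 members, which include genes under the tested level, and for 70.9% of all genes tested. The ctrl array nearest to the IRE1dn mean was array 3 for SEMA3C, PLXNA1 and PLXND1 and array 1 for SEMA4D and PLXNB2. Over the 1283 genes called higher, ctrl array 3 was nearest for 42.1%, array 2 for 37.4% and array 1 for 20.5%. The part of ctrl array 3 in these changes was not tested beyond leaving it out, which kept all 5 calls.

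**Figure D3:**
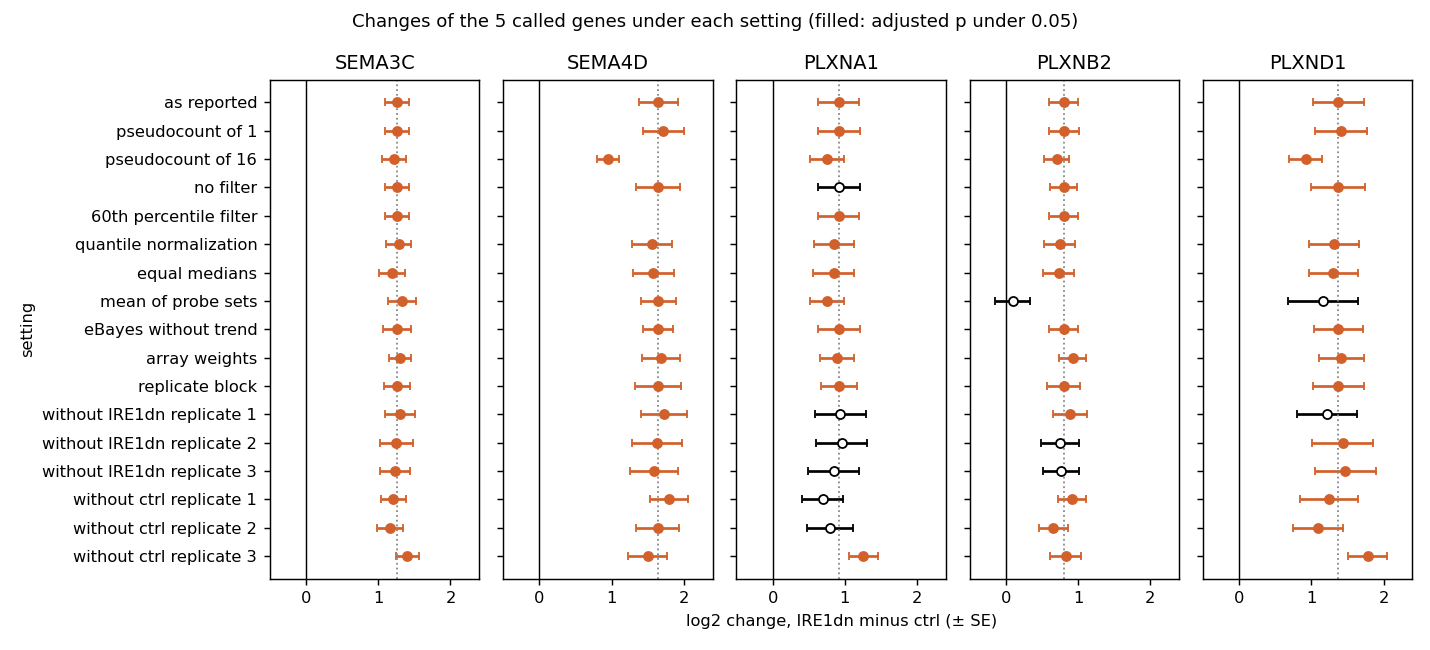
Log2 change ± SE, IRE1dn minus ctrl, of the 5 called genes (panels) as reported and under each other setting (rows). Filled orange points passed an adjusted p of 0.05, open black points did not, and a missing point means that the gene was not tested there. SEMA3C and SEMA4D passed wherever they were tested, and PLXNA1 did not pass without any single array other than ctrl array 3.

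Promoter windows were found in RefSeq for 9 of the 10 members, 18 windows in all. Their GC content ran from 36.0% to 87.3%, beside a median of 58.7% over 35116 windows of the same length. Both strands of each window were searched. At least 1 GC box (GGGCGG) was found in 14 of 18 windows, beside 45.0% of all windows, and ACGTG in 6 of 18, beside 21.4%. ACGTG occurred in windows of SEMA3B, SEMA4D and SEMA7A, of which only SEMA4D rose. By gene that is 3 of 9, since 4 of the 6 windows are of SEMA3B, and 2 of those overlap and hold the same match. Other windows of a gene can overlap too, so windows are not independent. The longer TGACGTG, the core of an element bound by spliced XBP1 that contains ACGTG, was found in 1 window, of SEMA3B, beside 2.0% of all windows. The endoplasmic reticulum stress element, a CCAAT box followed at a fixed distance by CCACG, was in none of the 18 and in 0.1% of all windows. A TATA box (TATAAA) was in none of the 18, beside 11.5%, and the CCAAT box alone in 4 of 18, beside 34.6%. These matches describe letters in the windows and show no binding.

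The rest of the pathway was read from 6 lists of 77 genes, 70 of them on the array and 45 above the tested level. Of the 45, 14 rose and 4 fell, beside 17.9% and 16.5% of all genes tested, and their median log2 change was 0.39 beside 0.01. These counts include genes that passed the level through 1 group, ERBB2 through IRE1dn and MICAL1 through ctrl, and FARP1 and DPYSL4 had 2 of 3 ctrl arrays under it, so nothing is read from them. With no filter 15 of the 70 rose and 5 fell, beside 19.1% of all genes called in either direction. Without the filter 4 of the 25 genes under the tested level were called, SEMA3D and L1CAM higher and RND2 and PTK2B lower, all named after their values were seen. The share called among all genes under the level was not counted, so nothing is read from this count. Leaving out single arrays ended each of these calls at least once, and RND2 changed by -1.59 with all arrays and by -0.76 without ctrl array 3 (adjusted p = 0.27 by limma).

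Among 14 other semaphorins, 12 were on the array and 3 were tested. None was called by its brightest set, beside 34.4% of all genes tested. SEMA5A, named after its values were seen, had a second set above the level, with means of 20.4 and 45.3 units, that was called higher (1.21, SE 0.36; adjusted p = 0.0275 by limma over probe sets). Its brightest set was not called (0.70, SE 0.34) and passed without ctrl array 3 (1.11; adjusted p = 0.00573 by limma). SEMA3D, called only without the filter (1.19, SE 0.36; adjusted p = 0.048 by limma), lay at 0.926 ± 1.03 and 4.19 ± 1.42 units (SD, n = 3 each), both under the tested level, and that call ended without any single array other than ctrl array 2. Among 7 other plexins and neuropilins, 6 were on the array, 3 were tested and none was called, beside the same 34.4%. NRP1, the co-receptor of SEMA3A and SEMA3C, measured 728, 731 and 597 units in ctrl and 657, 694 and 626 units in IRE1dn. The groups overlapped, with a log2 change of -0.051 (95% confidence interval -0.38 to 0.28; adjusted p = 0.82 by limma). NRP2, the co-receptor preferred by SEMA3F, measured 75.7, 119 and 40.3 units in ctrl and 50.1, 49.3 and 41.2 units in IRE1dn. Its log2 change was -0.59 (SE 0.34; adjusted p = 0.20 by limma), and it was -0.99 without ctrl array 3, where it passed (adjusted p = 0.011 by limma). All 4 NRP2 sets above the tested level were lower in value in IRE1dn.

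Of 8 other receptors and co-receptors of semaphorins, 4 were tested and 2 rose, beside 17.9% of all genes tested. ERBB2, a receptor kinase that associates with plexin B1, rose from 9.97 ± 5.47 to 36.2 ± 0.787 units (SD, n = 3 each; 1.79, SE 0.33; adjusted p = 0.00355 by limma), and the change was 1.03 with a pseudocount of 16. ITGB1, the integrin beta subunit of SEMA7A receptors, rose from 1747 ± 71.4 to 2589 ± 211 units (0.56, SE 0.13; adjusted p = 0.00807 by limma). The 4 further ITGB1 sets lay under the tested level, and the mean over all 5 changed by -0.036, which was not called.

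Transcripts of proteins that bind plexins or relay their signal were called in both directions, as were those of all genes tested. Of 20 listed GTPases, exchange factors and adaptors, 14 were tested, 4 rose and 1 fell, beside 17.9% and 16.5% of all genes tested. Nothing is read from the counts of this or any other single list. FARP1, an exchange factor that binds A-type plexins, rose from 17.9 ± 27.5 to 155 ± 14.4 units (SD, n = 3 each; 4.15, SE 0.86; adjusted p = 0.00573 by limma), and both of its sets were called. Its ctrl values were 3.02, 1.02 and 49.7 units, so the ctrl mean rests on array 3, and the change was 2.62 with a pseudocount of 16. RANBP9, a scaffold that binds plexin A1, rose from 264 ± 40.6 to 568 ± 30.6 units (1.11, SE 0.17), and the Rac exchange factor TIAM1 rose by 0.89 (SE 0.19), a call that averaging its probe sets ended (0.31). ARHGAP35, a GTPase-activating protein engaged by plexins, rose by 0.70 (SE 0.23; adjusted p = 0.0401 by limma), and this call ended in 5 of 9 other settings that tested it and without any single array other than ctrl array 1. RRAS, the Ras-family GTPase whose activity plexins lower, fell from 281 ± 30.4 to 144 ± 20.8 units (SD, n = 3 each). Its log2 change was -0.96 (SE 0.18, adjusted p = 0.00385 by limma). RRAS2 of the same list, named after its values were seen, was not called by its brightest set (-0.0040, SE 0.15). Another RRAS2 set was called higher (0.77, SE 0.18, adjusted p = 0.00984 by limma over probe sets). The remaining set was lower in value and not called (-0.36, SE 0.23).

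Of 21 cytoskeletal effectors, 16 were tested, 6 rose and 3 fell, beside 17.9% and 16.5% of all genes tested. The collapsin response mediators, which carry semaphorin signals to microtubules, gave 3 of the rises. DPYSL3 rose from 141 ± 65.2 to 616 ± 38.2 units (2.21, SE 0.27), DPYSL4 from 21.7 ± 28.9 to 168 ± 40.8 units (3.60, SE 0.70), and DPYSL2, named after its values were seen, from 834 ± 148 to 1258 ± 70.8 units (0.61, SE 0.16; SD, n = 3 each; limma adjusted p of 0.000488, 0.00433 and 0.0188). The DPYSL2 call ended without any single array other than ctrl array 1 or 3. In DPYSL4, ctrl array 3 measured 55.1 units against 4.35 and 5.78 units on ctrl arrays 1 and 2, and averaging probe sets gave a change of 1.74. The MICAL enzymes, which oxidise actin downstream of plexins, split. MICAL2 rose from 535 ± 102 to 1231 ± 224 units (SD, n = 3 each; adjusted p = 0.0020 by limma). MICAL3 rose by 0.93 (SE 0.25) and was no longer called without IRE1dn array 1 (0.89) or IRE1dn array 3 (0.86). In contrast, MICAL1, named after its values were seen, fell by 0.92 (SE 0.30; adjusted p = 0.0371 by limma), a call that ended without a filter and without ctrl array 1, IRE1dn array 2 or IRE1dn array 3. LIMK1, the kinase that inactivates cofilin, measured 45.2, 56.6 and 28.8 units in ctrl and 24.3, 15.7 and 17.4 units in IRE1dn. It fell by 1.09 (SE 0.30; adjusted p = 0.0199 by limma), and this call ended without ctrl array 1, ctrl array 2, IRE1dn array 2 or IRE1dn array 3. A second LIMK1 set above the level was lower in value and not called (-0.71, SE 0.32, adjusted p = 0.11 by limma over probe sets). LIMK2 of the same list, named after its values were seen, went the other way. Its brightest set was not called (0.68, SE 0.31), and another set was called higher (0.84, SE 0.27, adjusted p = 0.040 by limma over probe sets). The focal adhesion kinase PTK2, named after its values were seen, fell by 0.54 (SE 0.18; adjusted p = 0.0398 by limma), a call that ended without any single array other than ctrl array 3.

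Of 7 semaphorin-processing proteases, 5 were tested and 2 rose, beside 17.9% of all genes tested. PCSK5, a proprotein convertase of the furin family that cleaves class 3 semaphorins, rose from 19.2 ± 6.82 to 89.1 ± 4.40 units (SD, n = 3 each; 2.18, SE 0.28; adjusted p = 0.0006 by limma). MMP14, the membrane metalloproteinase that sheds SEMA4D, rose from 65.8 ± 6.93 to 120 ± 10.4 units (0.85, SE 0.18; adjusted p = 0.00739 by limma).

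**Figure D4:**
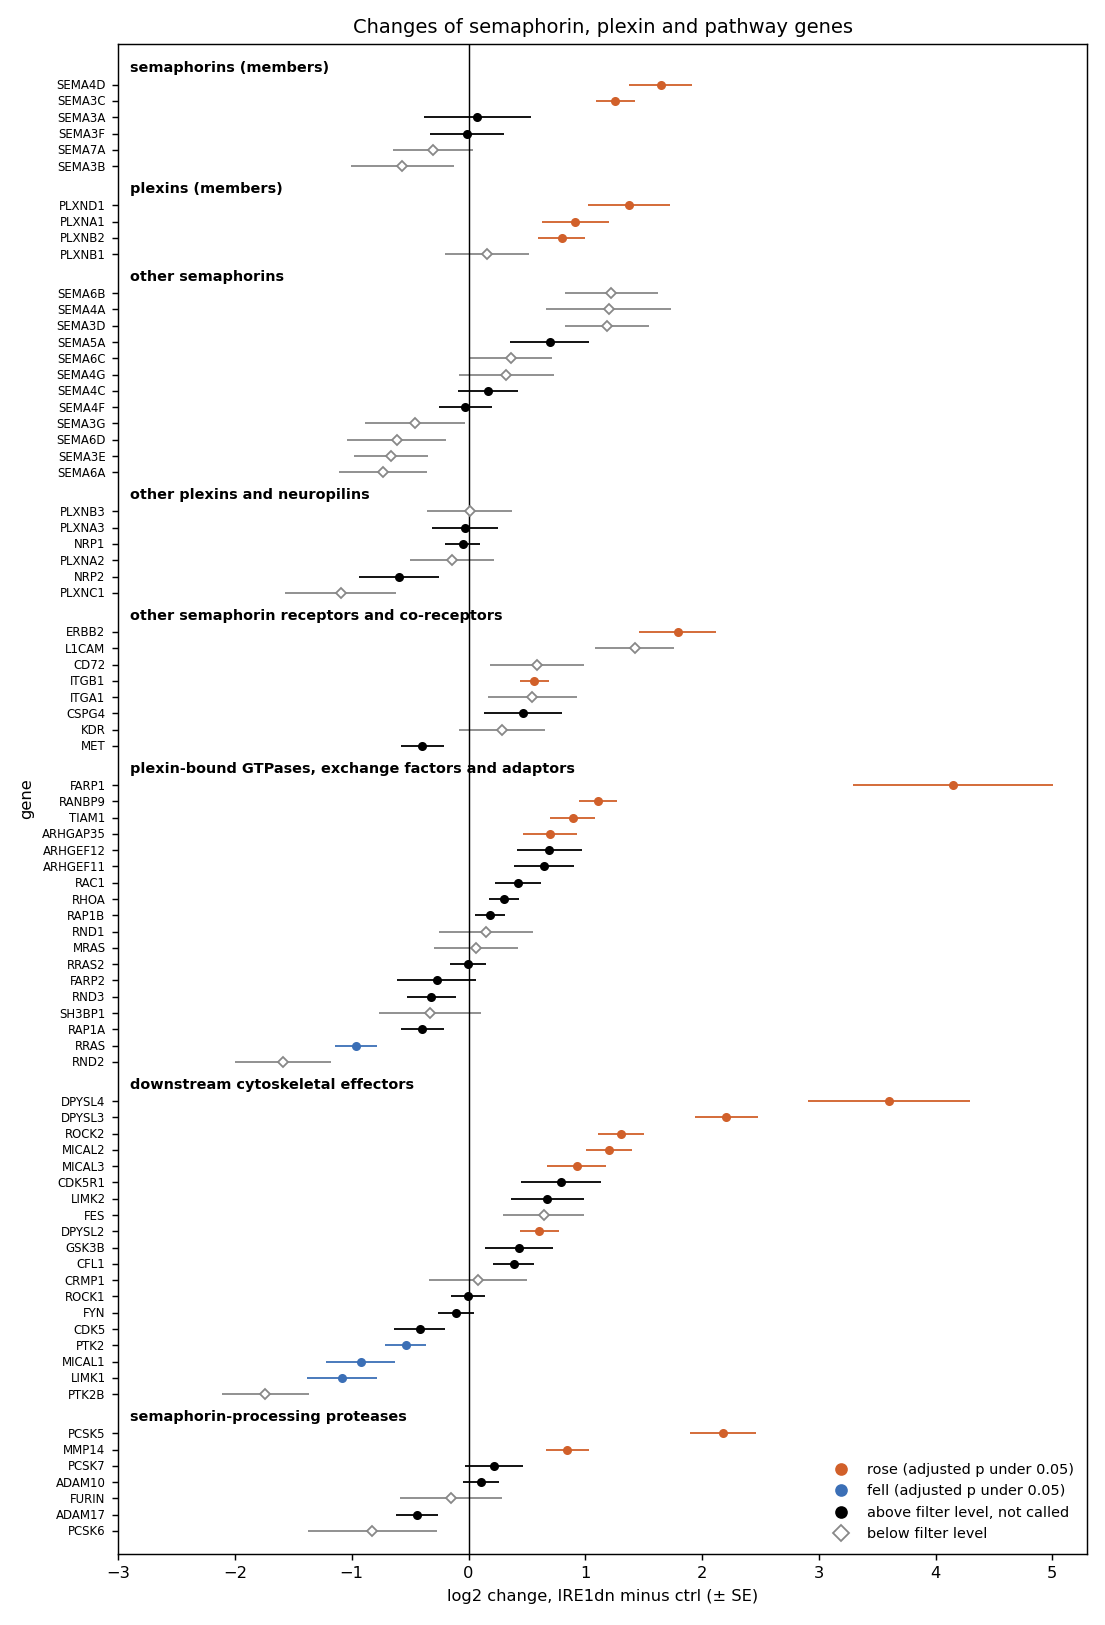
Log2 change ± SE, IRE1dn minus ctrl, of the 10 members and the 70 pathway genes on the array (vertical axis, grouped by list). Orange circles rose and blue circles fell at an adjusted p under 0.05, black circles were tested and not called, and open diamonds lay under the tested level. FARP1 and DPYSL4 lie farthest to the right, and no other semaphorin, plexin or neuropilin above the tested level was called by its brightest set, which is the set plotted.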

How the data were processed

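RNA from 6 U87 samples (3 IRE1dn, 3 ctrl) was measured on Affymetrix arrays. The deposited values are linear intensities per probe set, with a trimmed mean of 100.03 units on every array (2% at each end). GCOS 1.2 is named in the submitters' processing notes, and the summarisation is not given in the sources used here.

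The deposited intensities were turned into log2(signal + 1.75), the pseudocount being their 20th percentile. Probe sets took the platform's symbols, updated by gene identifier to RefSeq GRCh38.p14 (19052 of 19064 matched). Each gene used its brightest probe set, chosen anew in every fit unless sets were averaged. Genes above the 40th percentile of mean log2 signal were tested. IRE1dn was set against ctrl by lmFit and eBayes of limma 3.58.1 under R 4.3.3 (with trend, two-sided, Benjamini-Hochberg over all genes), and again over all probe sets above the same level. Members under the level take values from a fit without the filter, as the text says. The script was tested on simulated data. An exact permutation test of 3 against 3 cannot go below 0.1 and was not used. Alternatives were 2 other pseudocounts, 2 filters, 2 scalings, averaged probe sets, no trend, weighted arrays, a block for the replicate number, and leaving out single arrays. Members and lists were chosen with earlier results of these data known. Named were all members, NRP1, NRP2, ERN1, XBP1 and up to 6 called genes per list with the largest changes, except 1 cytoskeletal effector that is not reported here; other names are said to be chosen afterwards. The number of arrays limits the precision.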

Additional observations from a re-analysis of the deposited data

How the results depend on the processing

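With 1 array left out, 1446 to 2671 genes were called, 739 to 1416 higher and 707 to 1255 lower in IRE1dn, against 2468, 1283 and 1185 with all. Between 3 and 5 members were called (3 without any single IRE1dn array), and 11 to 18 pathway genes rose and 1 to 6 fell. Changes then ran from 0.69 to 1.26 for PLXNA1, 0.66 to 0.91 for PLXNB2, 1.09 to 1.78 for PLXND1, -0.39 to 0.66 for SEMA3A, -0.20 to 0.21 for SEMA3F and -0.051 to 0.52 for PLXNB1. Of the other settings, the 60th percentile filter left 3 members, 8 rising and 2 falling pathway genes called, with SEMA4D and PLXND1 not tested. The PLXNA1 call ended without a filter (0.91, adjusted p = 0.058). Averaging probe sets left 3 members called and ended those of PLXNB2 (0.097) and PLXND1 (1.17), and ITGB1 and NRP1 turned to -0.036 and 0.19; dim sets enter those averages. SEMA3A turned to -0.0025 with a pseudocount of 16 and to -0.24 with array weights; the cause was not tested. SEMA3C and SEMA4D kept their calls wherever tested. Between arrays of equal replicate number, deviations from group means correlated at -0.10, 0.061 and 0.025. Unequal numbers gave -0.12 to 0.075. With so few arrays these values neither show pairing nor exclude it. With the replicate number as a block, 2276 genes and the same count of 5 members were called, 14 pathway genes rose and 3 fell, and the calls of ARHGAP35 and PTK2 ended. Depth cannot be given for arrays, and dim signals limit SEMA3B, SEMA7A and PLXNB1.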
